A study of Macaca mulatta with 48 samples.

Results

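Diplotene and dividing spermatocytes are germ cells at the end of meiotic prophase and in the meiotic divisions. They were selected on their own transcripts out of testis cells of rhesus monkeys (Macaca mulatta), and were chosen by the measured UMIs of 5 genes, AURKA, CCNA1, PRM1, PRM2 and TNP1. A cell was a member if it held at least 1 unique molecular identifier (UMI, the tag that marks 1 captured RNA molecule) of AURKA, a kinase of spindle assembly, and at least 1 of CCNA1, the germ cell cyclin A. The transcripts of PRM1, PRM2 and TNP1, which package the DNA of elongating spermatids, also had to make up under 5% of its UMIs. Of 112577 barcodes in the files, 112150 passed the cell filters (300 or more genes, no more than 30000 UMIs, and 3% or less of them mitochondrial), and 9352 of these cells (8.34%) were members. The members numbered 64 in prepuberty, 2917 in adult and 6371 in aged animals.

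In male meiosis, homologous chromosomes pair along the synaptonemal complex and recombine through pachytene. The complex comes apart in diplotene, and the kinase CDK1 with its B-type cyclins drives the cell into the first division. The X chromosome is transcriptionally silenced from pachytene on, and many transcripts of the later spermatid, for the acrosome and the flagellum, are already made and stored before the divisions.

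Testes came from untreated monkeys of 1 year (prepuberty), 6 years (adult) and 22 years (aged), with 2 animals at each age. One testis of each animal was taken in the non-breeding season (NB) and the remaining testis in the following breeding season (B), so that season and the earlier removal of the other testis cannot be told apart. Cells were profiled by 10x Genomics droplet sequencing, which gave 12 libraries, and no sample label named a library: age, season and animal were read from the library sheet of the study. The breeding library of adult animal 2 stood apart, with 333 barcodes and a median of 17.6% mitochondrial UMIs. Of its 117 cells, 46 carried a barcode also found in the breeding library of aged animal 1. Its members numbered 5, and 4 of these 5 carried such a barcode. In the other adult and aged libraries, 0.993% to 3.81% of members shared a barcode with any other library. Gene levels are given for the 7 adult and aged libraries with at least 20 members, as counts per 1000000 UMIs (CPM) of the summed members of a library, and adult breeding animals are then represented by 1 library.

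The members were deeper than the remaining cells, with a median of 4716.5 against 2449 UMIs, and a rule that asks for UMIs of both genes is met more readily by deep cells. Members with exactly 1 UMI of each rule gene numbered 1519 (16.2%). Near the spermatid limit, the 195 members with 4% to 5% of their UMIs from PRM1, PRM2 and TNP1 had median counts of 1 AURKA and 2 CCNA1 UMIs, and the 143 cells with 5% to 6% that were left out had 2 and 2. Cells with somatic markers also met the gene part of the rule. Among adult and aged cells with UMIs of at least 2 Sertoli markers, a somatic type that should lack CCNA1, 9.65% of 12011 cells (median 3413 UMIs) held both rule genes, and among those with 2 T cell markers 5.92% of 557 cells (median 1636 UMIs) did. In prepuberty animals 0.140% of 30055 Sertoli-marked cells held both. Of the 1159 adult and aged Sertoli-marked cells with both genes 1119 were themselves members, as were all 42 in prepuberty animals, so these shares are no independent background for the share of members, and the marked cells were not shown to be somatic. Free RNA in the droplets and droplets with more than one cell cannot be told apart in these shares.

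In the adult animals members made up 4.36% of cells in the non-breeding library of animal 1 (95% exact Clopper-Pearson interval 3.95% to 4.8%) and 12.5% in that of animal 2. The breeding libraries held 13% in animal 1 and 4.27% in animal 2, the last with an interval of 1.40% to 9.69%. The aged animals held 12.4% and 14.2% in the non-breeding and 19.5% and 13.6% in the breeding season. These intervals cover counting error only. The adult share was 8.44% ± 5.77 (SD, n = 2) in the non-breeding and 8.63% ± 6.16 (SD, n = 2) in the breeding season, and the aged share was 13.3% ± 1.25 (SD, n = 2) and 16.6% ± 4.18 (SD, n = 2).

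**Figure D1:**
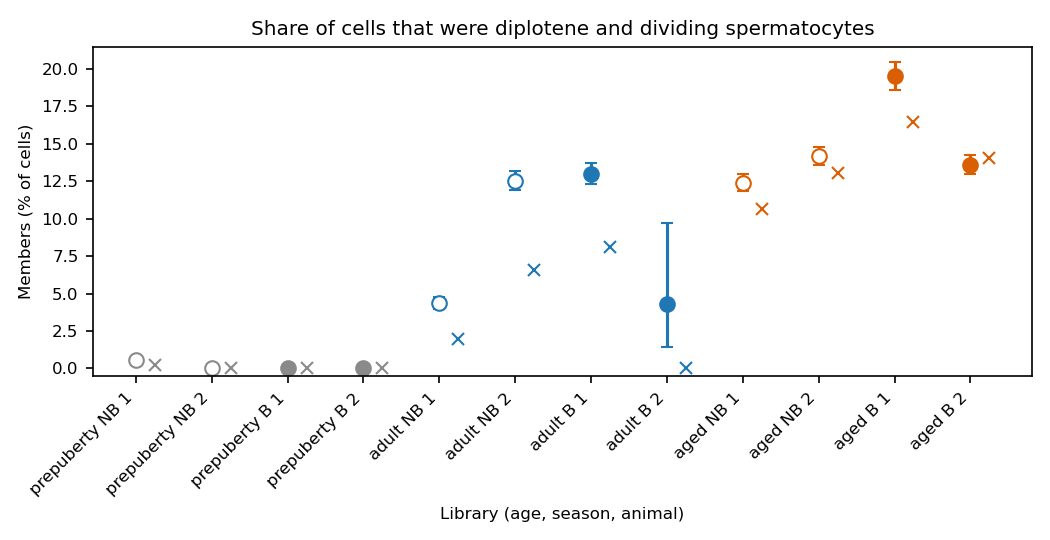
Share of cells in each of the 12 libraries that were members (circles, percent of cells passing the filters, with 95% exact binomial intervals). Crosses are the share among cells with at least 2000 UMIs, after each of these was thinned to 2000 UMIs. Grey is prepuberty, blue adult and orange aged, with open circles for the non-breeding and filled circles for the breeding season. Adult shares ran from 4.27% to 13%, aged shares from 12.4% to 19.5%, and prepuberty shares stayed at or below 0.545%.

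As shares of all cells, the season differences did not exceed the spread between libraries. Breeding less non-breeding was 0.188 percentage points in adult animals (exact two-sided permutation test, p = 1, n = 2 and 2) and 3.28 points in aged animals (exact permutation p = 0.667). Over the 4 animals taken as pairs the mean log2 ratio was 0.15 (exact sign permutation p = 0.875, smallest p possible 0.125). Averaged over both seasons, aged animals held 14.9% and adult animals 8.54%, a difference of 6.39 points. The animals of the 2 ages did not overlap, at 8.40% and 8.68% in adult and 13.9% and 15.96% in aged animals, and 2 against 2 animals cannot give an exact permutation p below the 0.333 found. The 8.40% of adult animal 2 was the unweighted mean of 12.5% and 4.27%, the last from 117 cells. Without that breeding library the animal stood at 12.5% and the age difference was 4.32 points. Single libraries overlapped, with 12.5% and 13% among adult and 12.4% among aged ones. Leaving out 1 library at a time moved the adult difference between -4.17 points (without the breeding library of animal 1) and 4.55 points (without that of animal 2), and the aged difference between 0.324 and 6.24 points. The difference between ages then ran from 4.23 points (without the NB library of adult animal 1) to 8.545 points (without its breeding library). Late germ cells were the members and the 2 comparison sets defined below, which leave out cells over the spermatid limit. As a share of late germ cells, the adult difference was 10.3 points (31.2% and 41.5%, exact permutation p = 0.333, again the smallest possible). The breeding library of adult animal 2 entered with 5 members of 13 such cells. In the NB library of adult animal 1, 922 of 1458 were pachytene comparison cells. Their X-linked UMIs were 2.75% of autosomal UMIs, beside 0.712% in members and 3.61% in all other cells there. They also held 4267 CPM over 12 Sertoli genes. The name late germ cells thus stands for these rules, and not all of the cells were shown to be germ cells. Thinning to 2000 UMIs left out all cells with fewer UMIs, so these shares have another denominator. Adult shares then ran from 0 of 19 cells in the breeding library of animal 2, which allows up to 15.8%, to 8.11%. Aged shares were 10.6% and 13.1% in the NB and 16.5% and 14.1% in the breeding libraries. The seasons did not overlap there, with a difference of 3.43 points (exact permutation p = 0.333, the smallest possible).

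Transcripts the rule did not use were measured next in the members and in 2 comparison sets. Pachytene comparison cells held UMIs of at least 2 of SYCP3, PIWIL1, CCDC112 and HORMAD1 and none of either rule gene, and round spermatid comparison cells held at least 2 of TEX29, TMEM190 and ACRV1 and not both rule genes. Because all of these cells were sorted by their own counts, their differences are descriptions and carry no test. Early spermatocyte markers, summed over 11 genes, had a median of 1777 CPM in the pachytene set and 401 CPM in members. The names of the comparison sets stand for their rules, and neither set was shown to hold a single stage. CCNB2, a B-type cyclin and the remaining proposed marker, averaged 840 CPM in members (range over the 7 libraries 764 to 993), 314 CPM in pachytene and 430 CPM in round spermatid comparison cells. By library CCNB2 stood at 771 and 843 CPM in the adult non-breeding, 910 in the adult breeding, 795 and 993 in the aged non-breeding and 764 and 805 in the aged breeding libraries. The range in members overlapped neither comparison set.

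CDK1, the kinase itself, averaged 270 CPM in members, 195 in pachytene and 50.7 in round spermatid comparison cells. PTTG1, the securin, which inhibits separase until anaphase, averaged 1282, 439 and 670 CPM in the same order. CDC20, which activates the anaphase promoting complex, averaged 493, 157 and 293 CPM, and PLK1, a kinase of entry into division, 245, 50.8 and 127 CPM. In every one of the 7 libraries 6 of the 9 measured late spermatocyte markers outside the rule were above both comparison sets, against 961 of 5956 genes (16.1%) with a symbol and at least 20 CPM. CCNB1 was above both in 6 libraries. SPDYA, an activator of CDK2, and CKS2, a small CDK-binding protein, were as high or higher in the pachytene set, at 283 against 269 CPM for SPDYA and 1064 against 452 CPM for CKS2.

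Some genes of neighbouring stages were lower in members. SYCP3, a lateral element of the synaptonemal complex, averaged 184 CPM in members and 465 CPM in pachytene cells, and PIWIL1, the piRNA-binding Argonaute protein, 135 and 259 CPM. The PIWIL1 ranges overlapped, at 99.2 to 174 CPM in members and 78.5 to 409 CPM in pachytene cells. As a list, the 12 pachytene markers were not lower in members. Their summed median was 5542 CPM (4806 to 5683) in members and 4696.5 CPM (2060 to 6111) in pachytene cells. Round spermatid transcripts were present at a low level. TEX29 averaged 158 CPM in members and 877 CPM in round spermatid cells, and ACRV1, an acrosomal protein, 44.1 and 247 CPM. SYCP3, PIWIL1, TEX29 and ACRV1 were themselves used to choose the comparison cells. AURKB, the kinase of the chromosomal passenger complex, stood at only 10.1 CPM in members, and no list used here separates a diplotene cell from a cell in division, so the name stands for both.

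**Figure D2:**
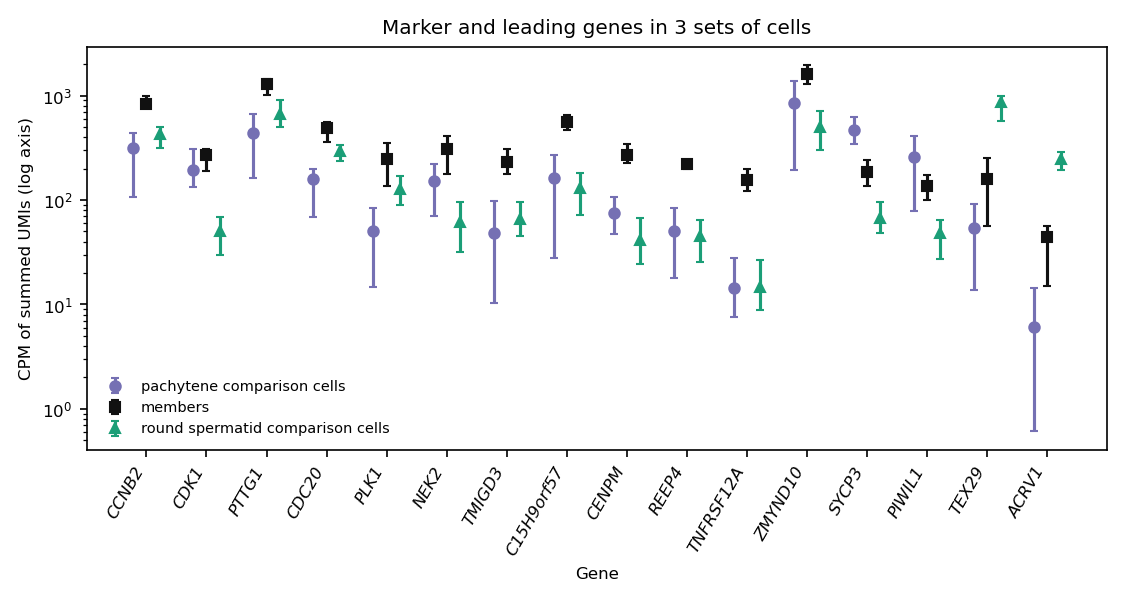
Levels of 16 genes in the members (black squares), pachytene comparison cells (purple circles) and round spermatid comparison cells (green triangles), as CPM of summed UMIs on a log axis. Symbols are means over 7 libraries and bars the lowest and highest library; CCNB2, PTTG1, CDC20, PLK1 and TMIGD3 peak in the members, with SYCP3 higher in pachytene and TEX29 in round spermatid cells.

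Detection was also compared at equal depth. After thinning each cell to 2000 UMIs, which left out 544 members, 463 pachytene and 2306 round spermatid cells, CCNB2 was found in a median of 80.5% of members per library against 45% and 54.2% of the comparison sets. CDK1 was found in 38.2%, 23.9% and 9.37%, but in the breeding library of adult animal 1 in 35.6% of members and 45% of the 80 pachytene cells. TTK, a spindle checkpoint kinase, was found in 35% of members, 18.8% of pachytene and 45.5% of round spermatid cells. Unthinned, the CCNB2 shares were 94.1%, 46.4% and 69.1%, those of CDK1 were 62.2%, 36.0% and 16.7% (62.2% and 60% for members and pachytene cells in that adult library), and TTK stood at 65.1% of members and 65.7% of round spermatid cells.

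Levels of 4 genes were also set against how firmly a cell met the rule. Members with 1 UMI of each rule gene held a median over libraries of 605 CPM of CCNB2, and those with 3 or more of each held 945 CPM. CDK1 stood at 142 and 375 CPM in the same order, beside 196 CPM in pachytene comparison cells. Round spermatid transcripts were higher in the members with 1 UMI of each. TEX29 stood at 348 and 76.4 CPM and ACRV1 at 102 and 21.2 CPM. Members with UMIs of at least 2 markers of a somatic type (Sertoli, endothelial, T cell, myeloid or peritubular) made up 61.8% of the members in the NB library of adult animal 1, 33.2% in that of adult animal 2 and 3.68% to 19.2% in the remaining libraries. Their CCNB2 median was 775 CPM, against 807 CPM in members lacking such pairs and 232 CPM in the other cells with such pairs. The share of members with pairs followed that of all cells, which was 72.7%, 33.9% and 4.64% to 23.5%. Summed over 12 Sertoli genes, members held 248 to 1372 CPM in the adult and 91.8 to 202 CPM in the aged libraries.

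By fold over all other cells, the 20 leading genes with a symbol ran from 3.61-fold to 5.04-fold. Cell division genes among them were NEK2 (3.94-fold, a centrosome kinase), CENPM (4.35-fold, a centromere protein), REEP4 (4-fold, which clears membranes from chromosomes in division), CDK1 (3.61-fold) and RAE1, which works in RNA export and at the spindle. C15H9orf57 led with 5.04-fold, followed by GRIN3A, a subunit of NMDA receptors, with 4.59-fold and ZMYND10, an assembly factor of dynein arms, with 4.41-fold. MRPL34, LYAR, TNFRSF12A, TMEM217, SLC2A8, KRT5, CARTPT, TMIGD3, CUTC, CIAPIN1 and AKAIN1 were also among them. Of the 20, 18 were above both comparison sets in every library, beside 961 of 5956 genes (16.1%) with a symbol and at least 20 CPM. The 20 were ranked against all other cells, which include both comparison sets, so this count is partly set by their choice. TNFRSF12A, a receptor of the TNF family, had a fold of 4.30.

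The promoters of both rule genes and of CDK1 are shown because cell cycle genes of this kind often carry a CCAAT box and a cell cycle genes homology region (CHR, TTTGAA). Each sequence is the 250 bases before the RefSeq gene start in Mmul_10, 5′ to 3′ on the strand of the gene, with matches to TTTGAA or CCAAT on either strand in capitals. They lie at chr10:91537005-91537254 (minus strand) for AURKA, chr17:15312999-15313248 (plus) for CCNA1 and chr9:77210912-77211161 (minus) for CDK1.
AURKA: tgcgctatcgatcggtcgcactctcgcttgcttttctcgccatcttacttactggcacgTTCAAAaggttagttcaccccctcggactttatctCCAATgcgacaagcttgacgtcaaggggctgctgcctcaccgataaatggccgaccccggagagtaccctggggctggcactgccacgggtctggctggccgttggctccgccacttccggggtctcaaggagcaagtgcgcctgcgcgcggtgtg
CCNA1: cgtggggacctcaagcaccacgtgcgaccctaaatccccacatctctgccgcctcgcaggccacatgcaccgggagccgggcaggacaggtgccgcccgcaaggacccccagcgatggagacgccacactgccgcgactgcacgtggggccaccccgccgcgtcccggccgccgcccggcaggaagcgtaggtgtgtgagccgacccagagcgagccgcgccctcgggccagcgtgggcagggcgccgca
CDK1: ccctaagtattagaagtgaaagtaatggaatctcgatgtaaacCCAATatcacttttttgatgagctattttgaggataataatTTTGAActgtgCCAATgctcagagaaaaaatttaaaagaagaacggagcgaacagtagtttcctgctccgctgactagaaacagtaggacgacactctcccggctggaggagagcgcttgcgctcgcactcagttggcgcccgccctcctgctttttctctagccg

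AURKA and CDK1 held both motifs and CCNA1 neither within this window. Of all 20787 protein-coding promoters of this length, 12.5% held TTTGAA, 31.0% CCAAT and 4.46% both. Of 22 genes of entry into M phase, 6 (27.3%) held TTTGAA, 13 (59.1%) CCAAT and 4 (18.2%) both, and of the 12 late spermatocyte markers 5, 8 and 4 did. Of the 20 leading genes 4 held TTTGAA, 6 CCAAT and 1 both. A match is a run of letters and not a measured binding site.

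Gene lists were compared as CPM summed over the measured genes of a list, and not all of them set the members apart from both comparison sets. The 21 M-phase genes, led by CCNB2, CKS2, CCNB1 and NEK2, summed to 2900 to 3862 CPM in members and 1074 to 1396 CPM in round spermatid cells, and overlapped the 1916 to 3845 CPM of pachytene cells. The 28 kinetochore and spindle genes, led by CENPF (589 CPM), SGO2 (292 CPM), NUF2 (241 CPM) and BIRC5 (235 CPM), overlapped pachytene cells as well, at 2553 to 3059 CPM against 2246 to 3288 CPM in pachytene cells. The 19 genes of the anaphase promoting complex and of exit from division, with PTTG1, ANAPC11, UBE2S and CDC20 highest, set the members apart at 4158 to 4991 CPM, above 1974 to 3271 CPM in pachytene and 2746 to 3331 CPM in round spermatid cells.

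Meiotic recombination genes stood between the comparison sets. The 22 measured genes summed to a median of 865 CPM in members, 2717 CPM in pachytene and 416 CPM in round spermatid cells, and included SPATA22 and MLH3, of which MLH3 acts at crossovers. The 16 genes of the synaptonemal complex and meiotic cohesin, led by HORMAD2, SKP1, SYCE3 and SYCP3, had medians of 2280, 3814 and 2296 CPM in the same order. The piRNA pathway, with GTSF1, DDX4, RNF17 and PIWIL1 highest, had medians of 2184, 2859 and 1959 CPM.

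Genes of the later spermatid were already high. The 21 acrosome genes summed to a median of 6173 CPM in members, 2854 CPM in pachytene and 8318 CPM in round spermatid cells. IZUMO4 carried much of this, with 2744 CPM in members, 1039 in pachytene and 1720 in round spermatid cells, and ZPBP, SPESP1 and PICK1, which act in acrosome formation or sperm-egg binding, were also above both sets in every library. The 32 flagellum genes, led by ROPN1L, ODF2, DYNLL1 and ROPN1, had medians of 9917, 7224 and 10581 CPM.

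Germ cell metabolism and chaperone genes split by member. LDHC, the lactate dehydrogenase of germ cells, averaged 3523 CPM in members against 1873 and 1925 CPM, while PGK2, a glycolytic enzyme of late germ cells, stood at 572 CPM against 190 in pachytene and 622 in round spermatid cells. PGAM2 and PDHA2 were the other highest genes of that list. CLGN, a testis chaperone of the endoplasmic reticulum, averaged 1284 CPM against 828 and 526 CPM. HSP90AA1, a cytosolic chaperone, averaged 2154 CPM in members, 5057 in pachytene and 396 in round spermatid cells. Among genes of stored mRNA and translation, PABPC1, YBX3, DDX25 and PAIP2 were the highest, and the list medians were 4956, 4547 and 3839 CPM.

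X-linked transcripts were scarce in the members. UMIs of 646 X-linked genes amounted to 0.404% to 0.712% of the UMIs of 15572 autosomal genes, with a median of 0.464% over the 7 libraries. Pachytene comparison cells held 0.479% to 2.75% (median 0.806%), round spermatid cells 1.03% to 1.87% (median 1.08%) and all other cells 1.15% to 3.61% (median 1.30%). The ranges of members and round spermatid cells did not overlap, and those of members and pachytene cells did. The pachytene cells of the non-breeding library of adult animal 1 also held most Sertoli transcripts, up to 4267 CPM over the Sertoli list, and the part of such RNA in these shares was not tested. The highest X-linked genes in members were SSR4 (186 CPM against 626 in all other cells), PPP1R2C (129 against 190) and PRDX4 (109 against 316), and MAP7D3 was level, at 68.9 against 63.6 CPM.

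Within the members, cells were ordered by the log2 ratio of round spermatid to synaptonemal UMIs, with 1 added to each, and divided into 5 bins of 1856 or 1857 cells. CDK1 went from a mean of 404 CPM in bin 1, the synaptonemal end, to 91.9 CPM in bin 5, and SPDYA from 411 to 94.4 CPM, both highest in bin 1 in 7 of 7 libraries. CCNB1 took another course, with 268 CPM in bin 1, 458 in bin 3 and 378 in bin 5, and PLK1 went from 217 through 298 to 203 CPM. CCNB2 stayed between 861 and 923 CPM over the first 4 bins and was 675 CPM in the last. Members thus differed among themselves in which kinase or cyclin was high.

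The lists moved in the same frame. Recombination genes went from 1532 to 453 CPM, M-phase genes from 4305 to 1976, kinetochore genes from 3581 to 1784 and chaperones from 8870 to 5082 CPM, each highest in bin 1 in every library. Flagellum genes went up from 8944 to 11066 CPM and the 8 elongated spermatid markers outside the rule from 725 to 2132 CPM, both in 7 of 7 libraries. Acrosome genes that are no part of the axis went from 5660 to 4996 CPM, lower in bin 5 than in bin 1 in 7 of 7 libraries. Bin 1 was deeper (median 7168 UMIs, against 4119 to 4747 in the others), and predicted doublets, barcodes that may hold more than one cell, made up 5.39% of bin 1 and 11.6% of bin 5. Their part in these courses was not tested.

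**Figure D3:**
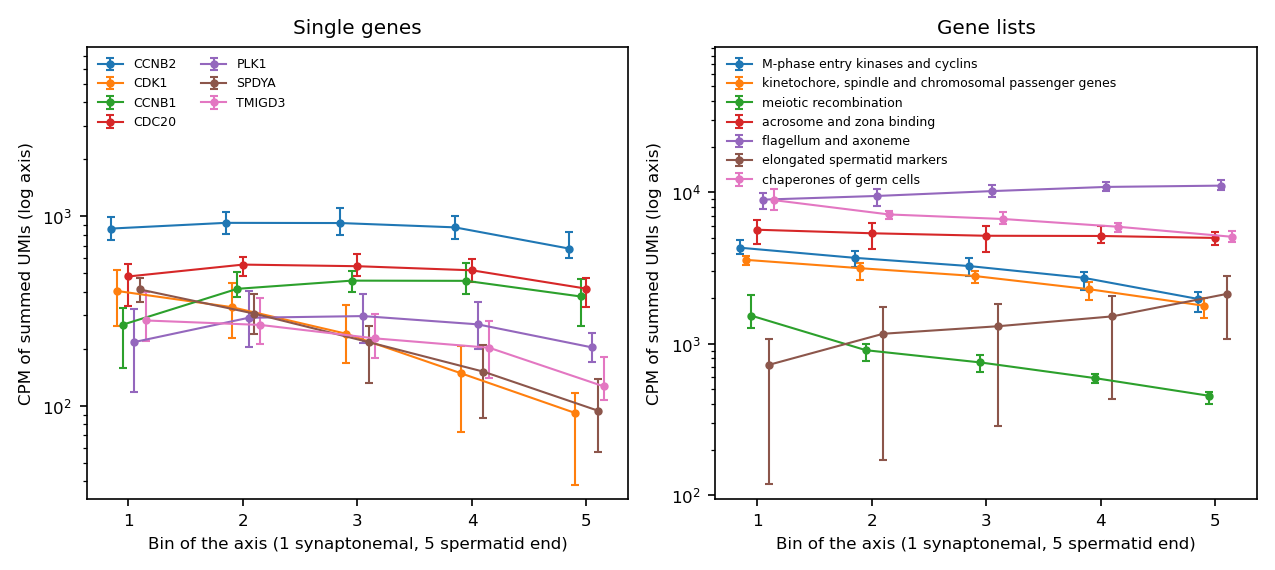
Levels along the 5 bins of members, from the synaptonemal end (bin 1) to the spermatid end (bin 5), for 7 single genes (left) and 7 gene lists (right), as CPM on log axes. Points are means over 7 libraries and bars the lowest and highest library; CDK1 goes from 404 to 91.9 CPM while CCNB1 is highest in bin 3, at 458 CPM.

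Libraries placed their members differently on this axis. Bin 1 held 66.7% of the members in the NB library of adult animal 1 and 12.2% to 24.5% in the others. Among the adult and aged libraries with at least 20 members, that library also had the lowest share of members. Its members held the most Sertoli transcripts among these libraries, and CKS2 at 1058 CPM against 254 to 467 CPM in the others. HSP90AA1 reached 4622 CPM there.

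The seasons were compared on the summed members of the 7 libraries, to ask which genes of these cells differ between breeding and non-breeding testes. With edgeR's quasi-likelihood test and Benjamini-Hochberg adjustment over 15968 genes, no gene passed an adjusted p of 0.05 in adult animals (0%, 1474 genes at an unadjusted p under 0.05), in aged animals (0%, 570 genes) or over both ages (0%, 2034 genes), and none differed in its season change between the ages (0%, 227 genes). DESeq2 called 21 (0.132%), 3 (0.0188%), 127 (0.795%) and 1 (0.00626%) in the same order. Adding the animal as a block, since both testes came from it, called 3976 (24.9%), 390 (2.44%), 4464 (28%) and 1163 (7.28%) genes. That fit has 1 residual degree of freedom, and its adult estimate rests on animal 1 alone, whose non-breeding library was the one with most members in bin 1 and most Sertoli transcripts. When the NB library of adult animal 2 was left out, edgeR called 318 genes in adult animals and 278 over both ages. The adult comparison then set 1 library against 1, with the spread taken from the aged libraries and assumed to hold for adult ones, and the non-breeding library kept was again that of adult animal 1.

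The immediate early gene FOS, a transcription factor subunit induced within minutes of many stimuli, came nearest. It stood at 59.2 and 47.0 CPM in the members of the adult non-breeding libraries and at 3.66 CPM in the adult breeding library. In aged animals it stood at 19.4 and 17.1 CPM in the non-breeding and 2.64 and 1.80 CPM in the breeding libraries. All non-breeding libraries were thus above all breeding libraries. Over both ages the log2 change of FOS was -3.25 ± 0.30 (SE; edgeR adjusted p = 0.129), with an adjusted p of 1.14e-09 under the block, 1.67e-15 in DESeq2 and 0.0184 when the NB library of adult animal 2 was left out. Other cells of the same libraries held more FOS and had the same order, with 400 and 244 against 30.6 CPM in adult and 100 and 98.8 against 25 and 22.6 CPM in aged animals. The part of free RNA or of tissue handling in this difference was not tested.

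JUN, the partner of FOS, had a log2 change of -2.20 (edgeR adjusted p = 0.352), and -2.24 under the block (edgeR adjusted p = 1.55e-07). Of the 16 stress and immediate early genes tested, 3 had estimates above 0, and their median log2 change was -1.46, beside -0.05 over all genes. None passed, and under the block 1 was higher and 9 were lower, beside 13.8% and 14.2% of all genes. As summed CPM the 17 measured genes of this list ran only from 652 to 804 CPM over the members of the 7 libraries. DNAJB1 made up much of this sum, at 405 to 531 CPM in the non-breeding and 565 to 610 CPM in the breeding libraries. All 12 Sertoli genes had estimates below 0 (median -1.50), as had all 10 Leydig and stromal genes (median -1.51) and all 8 T cell genes (median -1.70), though these transcripts are not expected from spermatocytes. Under the block 11, 6 and 2 of them were lower, beside 14.2% of all genes. The last 2 medians turned on the NB library of aged animal 1: without it they were -0.49 for Leydig and stromal genes, with 9 of 10 estimates below 0, and -0.41 for the 4 T cell genes still tested, with 3 below 0, while the Sertoli median was -1.31. The T cell list summed to 111 CPM in the members of that library, 17.5 to 20.6 CPM in the other non-breeding and 10.8 to 15.9 CPM in the breeding libraries.

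Division genes had smaller estimates. CCNB2 had a log2 change of 0.18 ± 0.16 (SE; edgeR adjusted p = 0.663) over both ages, and was not called under the block either (adjusted p = 0.212). Of 20 M-phase genes tested 15 had estimates above 0, with a median of 0.26, which was 0.05 without the breeding library of aged animal 2 and 0.11 without the NB library of aged animal 1. CCNB1 had a log2 change of 0.51 (adjusted p = 0.392) and was called under the block (0.72, edgeR adjusted p = 0.00075), as were CDC20 (0.61) and PTTG1 (0.37). Of 20 acrosome genes 18 had estimates above 0 (median 0.44), as had 12 of 12 round spermatid markers (median 0.40), and under the block 14 and 11 were higher and none was lower, beside 13.8% of all genes higher and 14.2% lower. Recombination genes had 5 of 21 estimates above 0 (median -0.22), with 2 higher and 6 lower under the block. Without the NB library of adult animal 1 the medians were 0.06 for round spermatid markers (7 of 12 above 0), 0.29 for acrosome genes and -0.11 for recombination genes, and the last was also -0.11 without the NB library of aged animal 1. Without the NB library of adult animal 2 they were 1.11 for round spermatid markers and 0.69 for acrosome genes, and without the breeding library of aged animal 1 the round spermatid median was 0.25. The share of members in bin 1 moved with season in adult animal 1, from 66.7% to 24.5%, and its part in these values was not tested.

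Aged and adult animals were compared on the members of each animal summed over both seasons, 2 animals against 2, to find genes that differ with age in these cells. Adult animal 2 entered almost only through its non-breeding library, so age and season are partly mixed. Of 15439 genes, 28 (0.181%) passed an adjusted p of 0.05 in edgeR's quasi-likelihood test, 4 higher (0.0259%) and 24 lower (0.155%) in aged animals, and DESeq2 called 266 (1.72%). Without adult animal 1 or 2 the test called 9 or 16 genes, and without aged animal 1 or 2 it called 558 or 604. The ranges of the animals were apart for all 28, but the share over all genes tested was not counted, so this adds nothing to the calls. Of the 24 that fell, 22 had a symbol, and 5 were on the Sertoli list (AMH, INHA, FATE1, CITED1 and CLU).

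Among genes with a symbol, the 10 that fell most were led by MMP12, a macrophage elastase, and included INHA, the inhibin alpha subunit, AMH, the anti-Müllerian hormone of Sertoli cells, the apolipoproteins APOA1 and APOC1, and PLA2G1B, SERPINA5, SPARC, KCNK13 and ERBB4. AMH stood at 213 and 57.6 CPM in the members of the adult non-breeding and 27.3 CPM in the adult breeding library, and at 6.17 to 9.53 CPM in the 4 aged libraries. Its log2 change was -3.23 ± 0.36 (SE; edgeR adjusted p = 0.0374). AMH was higher in the other cells of the adult libraries, at 150 to 1506 CPM. All 24 genes were also lower in the other cells of aged animals. With the members that carried somatic marker pairs left out, a step chosen after seeing these values, 0 genes passed. All 24 estimates, of genes picked in the same animals, stayed below 0, and that of AMH was -0.94.

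MMP12 differed from the rest of these genes in being higher in adult members than in the other adult cells. It stood at 16.4 and 6.42 CPM in the adult non-breeding and 11.5 CPM in the adult breeding members, beside 1.02 to 2.05 CPM in the other cells. In the aged libraries it was at 0.0984 to 0.252 CPM in members and 0.180 to 0.534 CPM in other cells. The log2 change in members was -5.58 ± 0.65 (SE; edgeR adjusted p = 0.0382), and -5.74 without the members with somatic pairs (adjusted p = 0.100).

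SLC12A7, a potassium-chloride cotransporter, was the only gene with a symbol that rose. It stood at 0.136 to 1.49 CPM in the 3 adult libraries and 19.2 to 31.9 CPM in the 4 aged libraries, with a log2 change of 4.82 ± 0.53 (SE; edgeR adjusted p = 0.0374). The other cells held 0.658 to 2.87 CPM in adult and 15.3 to 26.1 CPM in aged libraries, and were also higher in every aged than in every adult library. With the members that carried somatic pairs left out, its estimate was 4.78 (edgeR adjusted p = 0.160). The other 3 genes that rose had no symbol.

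**Figure D4:**
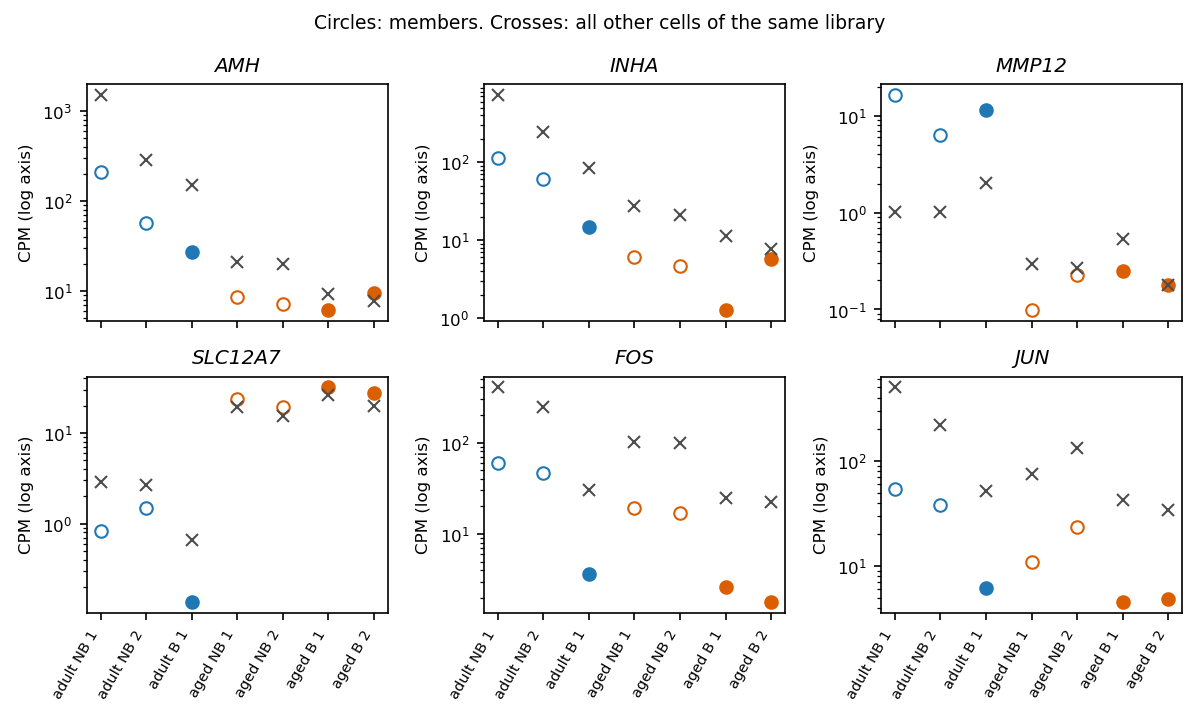
Levels of AMH, INHA, MMP12, SLC12A7, FOS and JUN in members (circles; blue adult, orange aged, open non-breeding, filled breeding) and in all other cells (crosses) of 7 libraries, as CPM on log axes. FOS is higher in the 4 non-breeding than in the 3 breeding libraries in both sets. MMP12 is above the other cells only in adult members, and its levels in the aged libraries lie near the floor.

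No division or meiosis list held a gene that passed between the ages. The median log2 change of aged over adult was 0.11 over 20 M-phase genes, 0.06 over 27 kinetochore genes and -0.39 over 20 recombination genes, beside 0.00 over all genes. CCNB2 had a log2 change of 0.13 ± 0.19 (SE; edgeR adjusted p = 0.865) and CCNB1 of 0.38 ± 0.17 (adjusted p = 0.478). Of 32 flagellum genes 30 had estimates above 0, with a median of 0.27 and none past the threshold. The 8 elongated spermatid markers outside the rule summed to 206, 977 and 1393 CPM in the adult and 1527 to 1771 CPM in the aged members, and bin 1 held 66.7% of the members of the adult library at 206 CPM. Their part in the flagellum estimates was not tested. No gene passed between the ages when the NB library of adult animal 1, all breeding libraries, or the members with somatic pairs were left out, and these 3 settings were chosen after seeing the data.

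Members were rare before puberty but not absent. The non-breeding library of prepuberty animal 1 held 57 members of 10467 cells, and the other 3 prepuberty libraries 5, 1 and 1. The 57 cells carried CCNB2 at 741 CPM, CDK1 at 352 CPM and TMIGD3 at 303 CPM. The M-phase list summed to 4139 CPM in them and 429 CPM in the other cells of the library, and the acrosome list to 5117 and 336 CPM. Their X-linked UMIs were 0.568% of autosomal UMIs, within the range of the adult and aged members, against 3.83% in the other cells and 2.68% to 3.35% in the remaining prepuberty members. Round spermatid markers were low, at 164 CPM over 12 genes, and 40 of the 57 cells held somatic marker pairs, with 1373 CPM over the Sertoli list.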

How the data were processed

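Testis cells of 6 rhesus monkeys were profiled by 10x Genomics single-cell RNA sequencing. Per the submitters' processing notes, the authors used Cell Ranger 9.0.0 and Mmul_10, and the 12 deposited matrices hold raw UMI counts per gene and barcode (26530 features, of which 9920 had no symbol and 565 of these were named from a reference table). The files hold 959819 to 43405583 UMIs per library. The sample labels list 48 samples, 8 per group, and name no matrix; group and animal were taken from the study's library sheet, which calls the youngest group pubertal. All count columns were mapped to a library.

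The rule for members, the gene lists and the comparisons were chosen with earlier results of these data known. Members and the comparison sets were counted per library in Python 3.11.15 (numpy 2.4.6, pandas 2.3.3, scipy 1.17.1), and doublets were scored with scanpy 1.11.5, taking 0.8% per 1000 cells, but kept. Counts summed per library (season) or animal (age) were tested with edgeR 4.0.16 in R 4.3.3 (low-count filter, TMM scaling, quasi-likelihood F test, Benjamini-Hochberg adjustment), with DESeq2 1.42.0 as an alternative. The edgeR steps were tested on simulated data. Folds of members over other cells are means of log2(CPM + 20).

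The genes named were the 4 with the highest mean CPM in members of each list and any that passed a test, up to 10 genes per direction with a symbol, the largest changes and ranges apart for each comparison, and the 20 leading genes by fold. Both testes of an animal pair by the study's account: between the 2 aged animals, the differences between animals correlated at 0.52 between seasons over 6184 genes, and the block on the animal is given where it changes a call. Libraries of an animal are separate captures of separate testes, with 2 animals per age. Gene positions and promoters are from the RefSeq annotation of Mmul_10, and 16233 of 17123 symbols in the files were placed. Alternatives were DESeq2, no low-count filter, doublets left out, a spermatid limit of 1%, a mitochondrial limit of 10%, thinning to 2000 UMIs, late germ cells as the denominator, the block, each library or animal left out, and those added after seeing the data (non-breeding libraries only, adult animal 2 or the non-breeding library of adult animal 1 left out, members with somatic pairs left out). The free RNA removal, library integration and cell annotation of the study were not used here. Some genes that the naming rule picks, and promoter sequences other than those of AURKA, CCNA1 and CDK1, are not reported here.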

Additional observations from a re-analysis of the deposited data

Results flagged for a closer look

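Members in prepuberty libraries lay outside the comparisons between seasons and ages of adult and aged animals. In the non-breeding library of prepuberty animal 1 they made up 0.545% of cells (57 of 10467, 95% exact interval 0.413% to 0.705%), and in that of prepuberty animal 2 0.0441% (5 cells). Both were picked out because their counts were above the limit that a count of 0 allows, with no control samples to set them against. Thinned to 2000 UMIs, the first share was 0.205%, and the second library held 0 members of 8852 cells, which allows a share of up to 0.0339%, so that only the first remained above the limit. Of prepuberty cells with 2 Sertoli markers, 0.140% held both rule genes, and all 42 of these were members.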

How the results depend on the processing

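The counts of called genes moved most. For the season in adult animals, the season in aged animals and both ages together, no filter on low counts gave 108, 56 and 402 calls in place of 0, DESeq2 21, 3 and 127, and the replicate block on the animal 3976, 390 and 4464; for the difference between ages in the season change DESeq2 gave 1 and the block 1163. Leaving out 1 library gave 0 to 318, 0 to 1, 0 to 278 and 0 to 4 calls, the highest count each time with the NB library of animal 2 (aged animal 2 for the aged season, adult animal 2 for the rest) left out; leaving out adult animal 2 altogether gave 318 and 278. A lone library or animal left in a group was assumed to vary like the other groups. Between the ages, 28 calls became 266 with DESeq2, 602 with no filter, 13 without predicted doublets, 7 with spermatid UMIs under 1%, and 9 to 604 with 1 animal left out (9 and 16 without adult animal 1 or 2, 558 and 604 without aged animal 1 or 2). They became 0 without members with somatic pairs, with NB libraries (non-breeding) only, and with the NB library of adult animal 1 left out, which were chosen after seeing the data. The cause was not tested. The 11 genes named between the ages kept their direction over 143 values under alternatives, of which 55 no longer passed. They were picked for large changes in the same animals, so the kept direction is no independent support.

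For the shares, the adult difference between seasons reversed to -0.215 points after thinning and to -0.0586 with a mitochondrial limit of 10%, and the aged one to -0.481 with late germ cells as the denominator. The adult difference was 10.3 points with that denominator, and 3.06 points with somatic-pair members left out, which was chosen after seeing the data. The aged difference was 3.43 points after thinning and 4.30 points with somatic-pair members left out. Each of these 2 had an exact permutation p of 0.333, the smallest possible. With 1 library left out the adult difference ran from -4.17 to 4.55 points, the aged one from 0.324 to 6.24, the log2 ratio over 4 pairs from -0.318 to 0.724 and the age difference from 4.23 (without the NB library of adult animal 1) to 8.545 points, and with 1 animal left out the age difference ran from 5.35 to 7.43 points. The age difference was 9.39 points after thinning (4.16% and 13.6%) and 10.01 points with late germ cells as the denominator (36.3% and 46.4%), each with an exact permutation p of 0.333, the smallest possible. Thinning gave no ratio over 4 pairs, because the breeding library of adult animal 2 then held 0 members. A minimum of 10 members changed no library, and without the breeding library of adult animal 1 no adult season test was left. The block does not apply to the comparison of ages. Depth limits the members most in that library of adult animal 2, whose members had a median of 1024 UMIs.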
